A study of Mus musculus with 6 samples.

Results

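Arterial endothelial nuclei, marked by Gja5 and Sema3g, made up 133 of the 8073 nuclei that passed quality limits in 6 single-nucleus RNA libraries of mouse tibial periosteum (1.65%). A nucleus was counted as arterial when its UMIs (unique molecular identifiers, the count of captured RNA molecules) of Gja5, Sema3g, Sox17 and St8sia6 summed to 2 or more. It also had to hold 2 or more UMIs of the endothelial genes Pecam1, Cdh5, Emcn and Flt1, under 3 of the lymphatic genes Prox1, Mmrn1 and Flt4, under 3 of the muscle genes Myh11, Myocd and Ryr2, and none of the leukocyte gene Ptprc. The same limits without the arterial genes gave 802 endothelial nuclei, of which the arterial nuclei made up 16.6%. The other endothelial nuclei used for comparison were the 573 with no UMI of the 4 arterial genes. The 96 endothelial nuclei with exactly 1 such UMI were put in neither class.

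Arterial endothelial cells line the vessels that carry blood under pressure into a tissue. In bone repair, arteries and the smaller branches they feed supply the periosteum and grow with the callus. The arterial state of endothelium is set by Notch signalling, in which ligands on one cell activate receptors on its neighbour and switch on target genes such as Hey1, and by SOXF transcription factors such as Sox17. Ephrin-B2 (Efnb2) marks the arterial side of the vessel tree, and the nuclear receptor COUP-TFII (Nr2f2) the venous side.

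The mice were C57BL6 wild-type animals (C57BL/6ScNj in the study's methods) of both sexes, 12 weeks old. Uninjured periosteum, scraped from tibias after the marrow had been flushed out, gave 2 libraries of 4 pooled mice each. After an open, non-stabilized tibial fracture, injured periosteum was scraped together with the hematoma or callus from pools of 4 to 9 mice, and gave 2 libraries at day 3, 1 at day 5, then 1 at day 7. The fracture groups therefore differ from the uninjured group in the tissue taken as well as in the injury, and sorted nuclei carried a DNA stain with no selection for endothelium. Because every library was a pool, p-values measure the spread between pools. Where fractured and uninjured tissue were compared, the day 3, day 5 and day 7 libraries formed 1 group, so its spread includes differences between days. Between classes of the same library, the spread is that of the class difference from library to library. The arterial nuclei numbered 24 and 70 in uninjured tissue, 3 and 7 at day 3, 24 at day 5, then 5 at day 7. Their summed depth was 55542 and 359446 UMIs for uninjured tissue, 7188 and 60631 at day 3, 133199 at day 5, then 21141 at day 7. As CPM, the UMIs of a gene scaled to a common total, 1 UMI was therefore worth 2.79 CPM in the second uninjured library and 140 CPM in the first day 3 library, where a count of 0 allows a level of up to 419 CPM. Intervals and such limits cover counting error alone.

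In GRCm38, the build of the files, the 4 genes of the rule lie at chr3:96904693-97077416 on the plus strand (Gja5), chr14:31217860-31230352 plus (Sema3g), chr1:4490931-4497354 minus (Sox17) and chr2:13651021-13794064 minus (St8sia6). They were not equally common among the arterial nuclei, and are described here with no test because they chose the nuclei. Sox17, which encodes a SOXF factor, was found in 94 of the 133 nuclei (70.7%). Sema3g, a secreted semaphorin, was found in 86 (64.7%). Gja5, the gap junction protein connexin 40, was found in 53 (39.8%), and St8sia6, a sialyltransferase, in 47 (35.3%). A single one of the 4 genes carried the call in 38 nuclei, 51 nuclei held 2 of them, 36 held 3 and 8 held all 4. The sum of the 4 genes was 2 in 38 nuclei, 3 or 4 in 41 and 5 or more in 54, with a median of 4 and a highest value of 40. Gja5 was found in 5 of 24 and 28 of 70 uninjured arterial nuclei, and in 0 of 3, 5 of 7, 12 of 24 and 3 of 5 nuclei of the day 3, day 5 and day 7 libraries. Sox17 was found in 18 of 24 and 57 of 70 uninjured nuclei, and in 1 of 3, 5 of 7, 12 of 24 and 1 of 5 fractured ones.

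The label was checked on 7 arterial markers that the rule did not use. Each nucleus was thinned to 1000 UMIs so that detection was read at equal depth, with the classes set before thinning. This left 127 arterial, 463 other endothelial and 5821 remaining nuclei. The remaining nuclei were all those outside the endothelial limits, so they include nuclei dropped by the lymphatic, muscle or Ptprc limits. Efnb2 was found in 30.7% of arterial nuclei (95% exact binomial interval 22.8 to 39.5) and in 8.21% of other endothelial nuclei (5.87 to 11.1). Its share in the remaining nuclei, which can hold free RNA as well as expression of their own, was 2.03%. Bmx, a non-receptor tyrosine kinase of arterial endothelium, was found in 24.4% (17.2 to 32.8), 6.05% (4.06 to 8.62) and 0.567% of these classes. Mecom, a zinc-finger transcription factor, was found in 95.3%, 72.8% and 6.91%. The gap junction gene Gja4 was found in 4.72%, 0.864% and 0.189%, which rested on 6 arterial and 4 other endothelial nuclei. The Notch target Hey1 was found in 3.15%, 0.432% and 0.206%, which rested on 4 arterial and 2 other endothelial nuclei. For both genes the intervals of the arterial and other endothelial shares overlapped. The Notch ligand Dll4 was found in 5.51% of arterial and 2.59% of other endothelial nuclei, with overlapping intervals (2.24 to 11.0 and 1.35 to 4.48). The guidance receptor Unc5b, at 3.94% against 1.94%, was close to its 2.18% share in the remaining nuclei. These shares pool the nuclei of 6 libraries, and by library the gap was uneven. In the first uninjured library Efnb2 was found in 3 of 19 arterial (15.8%) and 11 of 83 other endothelial nuclei (13.3%), and Bmx in 10.5% and 9.64%, with overlapping intervals. In the second uninjured library Efnb2 was found in 30.4% and 7.25%, and Bmx in 34.8% and 11.6%, with intervals that did not overlap. At day 5 Efnb2 was found in 37.5% and 9.33%. Bmx was found there in 12.5% (2.66 to 32.4) and 2.00% (0.414 to 5.73), with overlapping intervals. The first day 3 library had neither gene in its 3 arterial nuclei. Mecom was the more frequent in arterial nuclei of each library.

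Levels of these markers were also compared by the number of arterial UMIs in a nucleus. Pooled Efnb2 was 96.2 CPM in nuclei with none, 158 with 1, 183 with 2, 319 with 3 or 4 and 447 with 5 or more. Bmx was 68.9, 58.1, 125, 359 and 556 CPM over the same steps. Mecom was 3414 CPM with none and between 4937 and 5340 from 1 to 4 UMIs, and reached 7611 CPM with 5 or more. Gja4 was 3.35 and 2.00 CPM with 0 and 1 UMI and 44.0, 28.5 and 52.8 CPM above. Across the threshold itself, from 1 to 2 UMIs, the pooled intervals of Efnb2 (125 to 197 and 119 to 270 CPM), Bmx (38.9 to 83.4 and 72.6 to 199) and Mecom overlapped. By library Bmx went from 517 to 51.2 CPM in the first uninjured library, from 83.8 to 245 CPM in the second and from 0 to 24.4 CPM at day 5, so its direction differed between libraries. Gja4 rested on 1 UMI at a sum of 1 and 6 at a sum of 2. From a sum of 2 upward, nuclei with more arterial UMIs were also deeper (median 2279 UMIs at a sum of 2, 3184 at 3 or 4 and 4922 at 5 or more, against 3971 at 1), and CPM divides by that depth.

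**Figure D1:**
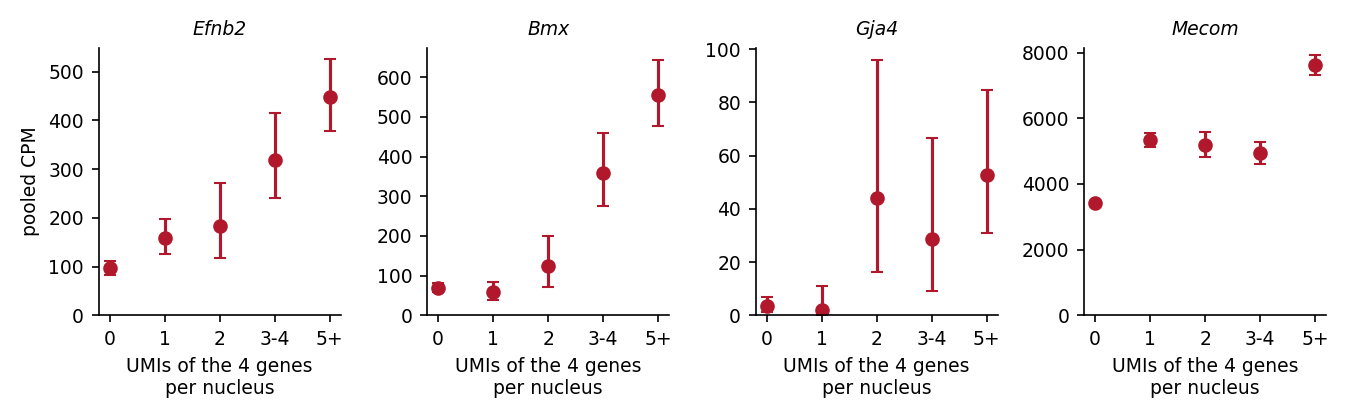
Pooled CPM of 4 arterial markers outside the rule (vertical axes) in endothelial nuclei grouped by their UMIs of Gja5, Sema3g, Sox17 and St8sia6 (horizontal axes), with exact 95% Poisson intervals. Between nuclei with 0 and with 5 or more such UMIs, Efnb2 stands at 96.2 and 447 CPM and Bmx at 68.9 and 556 CPM.

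How common arterial nuclei were in uninjured and injured tissue was asked next. They made up 3.73% of kept nuclei (95% exact interval 2.40 to 5.49) and 5.92% (4.65 to 7.42) in the uninjured libraries. After fracture their share was 0.398% and 0.407% at day 3, 0.991% at day 5, then 0.370% at day 7. The means were 4.82% ± 1.55 (SD, n = 2) and 0.541% ± 0.300 (SD, n = 4), and the 4 fractured libraries lay below both uninjured ones, with a fractured minus uninjured difference of -4.28 percentage points (exact two-sided permutation test over libraries, p = 0.0667, the smallest that 4 against 2 allows). At 1000 UMIs per nucleus the means were 1.81% and 0.180%. Within the libraries made with version 6.0.0 of Cell Ranger, the authors' counting software, the difference was -3.05 points, and within version 7.1.0 it was -5.52 points. The endothelial share of kept nuclei was 25.5% and 21.4% uninjured, 4.91% and 2.79% at day 3, 9.57% at day 5, then 5.03% at day 7, and injured samples also contained hematoma or callus, so fewer arterial cells and more cells of other kinds cannot be told apart.

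Among endothelial nuclei alone, the arterial share was 14.6% (9.61 to 21.0) and 27.7% (22.2 to 33.6) uninjured. It was 8.11% and 14.6% at day 3, 10.3% at day 5, then 7.35% at day 7. The means were 21.2% ± 9.22 (SD, n = 2) and 10.1% ± 3.25 (SD, n = 4), a difference of -11.1 points that also reached the smallest p of 0.0667, but the first uninjured library (24 of 164) and the second day 3 library (7 of 48) differed by less than 0.1 points. Thinned to 1000 UMIs, with the rule applied again and so with the few arterial nuclei given above, the difference was -3.83 points (exact permutation p = 0.133). Without the second uninjured library, and with no thinning, the difference was -4.54 points. Day 3 alone against uninjured gave -9.81 points, with an exact permutation p of 0.333, the smallest that 2 against 2 allows.

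**Figure D2:**
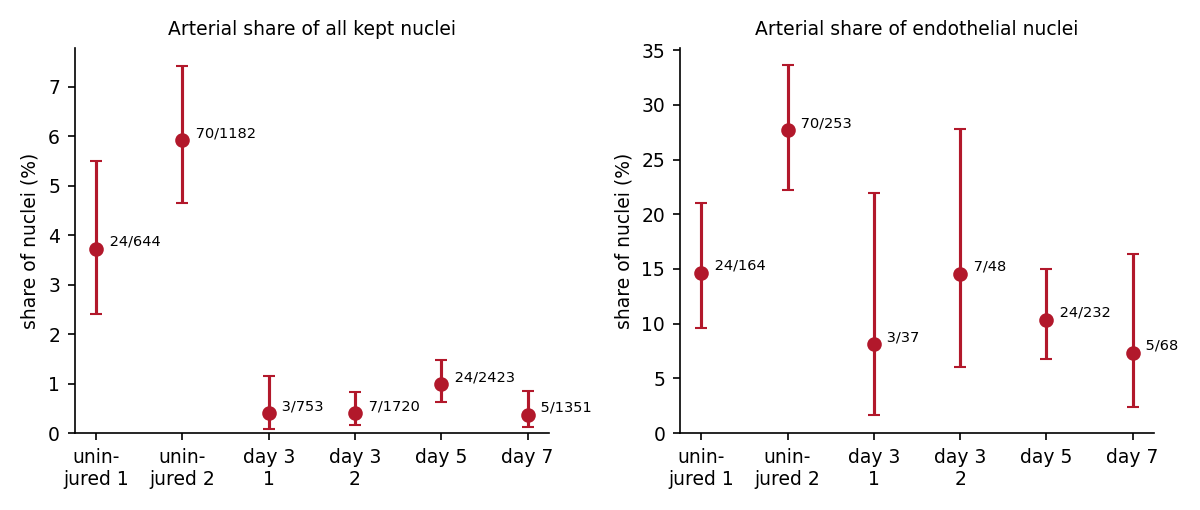
Share of arterial nuclei in each library (vertical axes, %), of all kept nuclei on the left and of endothelial nuclei on the right, with exact 95% binomial intervals and the counts beside each point. The fractured libraries lie at or below 0.991% on the left, below both uninjured libraries at 3.73% and 5.92%, while on the right the first uninjured and second day 3 libraries both stand at 14.6%.

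What else distinguished arterial nuclei from the other endothelium was tested on UMI sums of each class in each library, with the library as a block (edgeR quasi-likelihood test, Benjamini-Hochberg adjustment). The genes tested were not those of the rule, but they were measured in nuclei that the rule had sorted, so these calls describe what goes with the 4 markers. Of 2609 genes tested, 66 were higher in arterial nuclei (2.53%) and 80 were lower (3.07%), or 5.6% in either direction, at an adjusted p under 0.05. Prdm16 led the higher side and the venous regulator Nr2f2 the lower side.

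Of the 26 arterial identity genes listed, 12 passed the filter on low counts and 5 of these were higher (Efnb2, Jag1, Bmx, Fbln5 and Vegfc), with none lower. The 12 had a median log2 fold change of 0.87 where the median of all genes tested was -0.07, and each of the 12 was positive. The filter took both classes together, so a gene low in the other endothelium could pass through its arterial sums. The median and the shared sign are therefore a description and no test of the label. Efnb2, the ephrin of arterial endothelium, was at 307 and 299 CPM in arterial nuclei of uninjured tissue, 0 and 364 at day 3, 455 at day 5, then 906 at day 7. In other endothelial nuclei it was between 42.9 and 157 CPM, so arterial nuclei were higher in 5 of 6 libraries, the exception being the first day 3 library with its 3 nuclei. Its log2 fold change was 1.95 (SE 0.34, adjusted p = 0.00235). Bmx was at 126 and 556 CPM in uninjured arterial nuclei, 140 and 347 at day 3, 167 at day 5, then 429 at day 7, against 146, 133, 10.9, 0, 11.7 and 26.5 CPM in the other endothelium. It was higher in 5 of 6 libraries and not in the first uninjured one (log2 fold change 2.58, SE 0.54, adjusted p = 0.00756). Its 140 CPM in the first day 3 library was 1 UMI. In that library the direction of a gene, here and below, can rest on few UMIs.

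Jag1, a Notch ligand, was 1.64 higher on the log2 scale (SE 0.35, adjusted p = 0.00862) and higher in 6 of 6 libraries, though by 143 against 141 CPM at day 7. Vegfc, a growth factor best known for lymphatic vessels, was at 902 and 1073 CPM in uninjured arterial nuclei and at 171 and 215 CPM in the other endothelium (log2 fold change 2.21, SE 0.42, adjusted p = 0.00405). Fbln5, which encodes an elastic fibre protein, was 1.73 higher (SE 0.40, adjusted p = 0.0135). The 7 listed genes that did not pass were Acvrl1, Ltbp4, Edn1, Mecom, Nos3, Nrp1 and Notch1, with log2 differences from 0.90 down to 0.04. Dll4, Jag2, Hey1, Hey2, Notch4 and Gja4 were too low to be tested: Notch4, for example, was at 307 and 78.3 CPM in uninjured arterial nuclei and 35.6 and 10.2 CPM in the other endothelium, and Hey1 was at no more than 47.7 CPM in any library.

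The 250 bases before the RefSeq start sites (GRCm38.p6) of 4 of these genes are shown because the genes moved together with the arterial markers, and those of all 5 were searched on both strands for TGGGAA, a core of the RBPJ motif through which Notch acts, and for ACAATG, a SOX-type motif. They lie at chr8:8661243-8661492 (Efnb2), chrX:164258194-164258443 (Bmx), chr12:101819120-101819369 (Fbln5) and chr8:54077282-54077531 (Vegfc), with Vegfc on the plus and the others on the minus strand, and the sequence written 5' to 3' along the gene. Capitals mark a match, which for Bmx reads TGGGAA and begins 178 bases before the start site, and for Fbln5 reads TTCCCA, on the opposite strand, from 153 bases before it.
Efnb2: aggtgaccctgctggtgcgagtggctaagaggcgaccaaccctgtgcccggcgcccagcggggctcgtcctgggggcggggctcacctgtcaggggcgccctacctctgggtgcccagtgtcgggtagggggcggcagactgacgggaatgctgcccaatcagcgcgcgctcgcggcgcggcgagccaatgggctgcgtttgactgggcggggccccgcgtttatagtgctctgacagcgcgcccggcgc
Bmx: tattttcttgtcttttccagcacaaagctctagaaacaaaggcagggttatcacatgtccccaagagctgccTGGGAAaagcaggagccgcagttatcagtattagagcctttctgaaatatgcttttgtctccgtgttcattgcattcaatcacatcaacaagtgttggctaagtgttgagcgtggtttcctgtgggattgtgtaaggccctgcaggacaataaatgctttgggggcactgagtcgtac
Fbln5: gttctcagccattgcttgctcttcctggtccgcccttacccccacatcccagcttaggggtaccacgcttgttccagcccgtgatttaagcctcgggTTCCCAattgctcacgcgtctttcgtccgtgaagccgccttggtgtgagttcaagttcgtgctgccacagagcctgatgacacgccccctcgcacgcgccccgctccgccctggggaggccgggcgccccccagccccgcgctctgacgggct
Vegfc: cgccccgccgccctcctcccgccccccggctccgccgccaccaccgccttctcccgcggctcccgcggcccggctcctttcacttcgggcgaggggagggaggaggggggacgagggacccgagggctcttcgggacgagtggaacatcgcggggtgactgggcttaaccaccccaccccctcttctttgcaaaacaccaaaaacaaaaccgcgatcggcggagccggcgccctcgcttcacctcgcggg
Efnb2 and Vegfc held neither motif in this window. The window of Jag1 held CATTGT, the SOX-type letters on the opposite strand, and no TGGGAA, and is not shown because an annotated transcript starts inside it. Of the 66 higher genes, 49 had an entry, and 13 of them (26.5%) held TGGGAA or its reverse complement, against 21.5% of 27025 promoters of the same length. ACAATG or its reverse complement was in 3 of the 49 (6.12%) and in 11.0% of all. These are matches of letters and not sites of binding.

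The largest log2 fold change was that of Prdm16, a zinc-finger transcriptional regulator. The gene spans chr4:154316125-154636873 on the minus strand. It stood at 919.9 and 688 CPM in uninjured arterial nuclei, 699 and 1075 at day 3, 114 at day 5, then 524 at day 7, and at 64.0 CPM or less in the other endothelium of each library. The groups did not overlap (log2 fold change 4.51, SE 0.36, adjusted p = 6.29e-07), and it was found in 70 of the 133 nuclei. Lrrc3b, a leucine-rich repeat gene, was 3.32 higher (SE 0.32, adjusted p = 7.06e-06), with 90.2 to 579 CPM in arterial and 17.5 to 55.7 CPM in other endothelial nuclei. Both kept their call under each alternative that could test them, with log2 fold changes of 4.17 to 4.79 and 2.90 to 3.44.

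Other genes on the higher side were Nebl (3.06), a nebulin-family actin-binding gene, Stmn2 (2.85), a tubulin-binding gene best known in neurons, Apba1 (2.83), an adaptor protein, Lama3 (2.34), a laminin chain, Arl15 (2.32), a small GTPase, and Ptprj (2.29), a receptor phosphatase. Each of these 6 was higher in 6 of 6 libraries, with adjusted p between 0.000145 and 0.00601. Arl15 was among the most abundant, at 6096 and 6948 CPM in uninjured arterial nuclei against 1483 and 982 CPM in the other endothelium, and was found in 121 of 133 nuclei. Efna5, an ephrin of the A class, was at 2687 and 2023 CPM in uninjured arterial nuclei against 356 and 181 CPM (log2 fold change 2.58, SE 0.45, adjusted p = 0.00235), and at day 5 the values were 265 and 261 CPM. In no gene of this paragraph did 1 nucleus give more than 24.4% of the arterial UMIs.

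**Figure D3:**
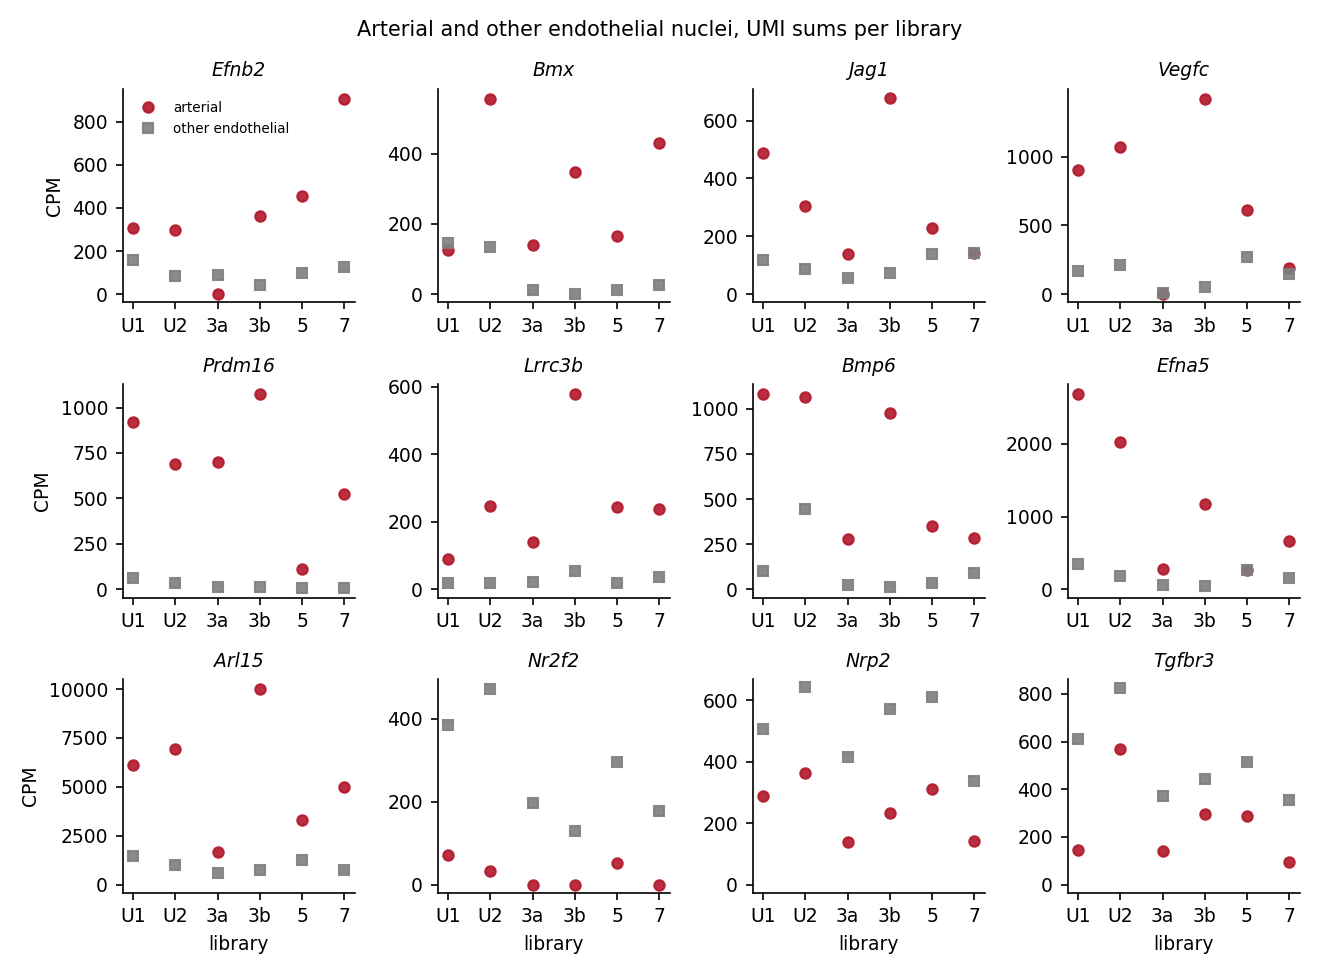
CPM (vertical axes) of 12 genes in UMI sums of arterial (red circles) and other endothelial nuclei (grey squares) of each library (U1 and U2 uninjured, 3a and 3b the day 3 libraries, 5 and 7 the later days). Prdm16, Lrrc3b, Bmp6 and Arl15 are higher in arterial nuclei in each library, and Nr2f2, Nrp2 and Tgfbr3 lower.

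In BMP and TGF-beta signalling, 13 of 16 listed genes were tested, 1 was higher and 2 were lower, where 2.53% and 3.07% of all genes tested were. In this list and those that follow, counts this small are read as values of single genes. Bmp6, a ligand that endothelium secretes, was at 1082 and 1065 CPM in uninjured arterial nuclei, 279 and 976 at day 3, 349 at day 5, then 286 at day 7. The other endothelium had 99.6 and 443 CPM uninjured and 12.9 to 88.4 CPM after fracture. Bmp6 was thus higher in arterial nuclei in 6 of 6 libraries (log2 fold change 2.95, SE 0.46, adjusted p = 0.000887). In the first day 3 library, where it was at 279 CPM, 1 UMI was worth 140 CPM. The receptor genes Tgfbr1 and Tgfbr3 were lower by log2 differences of -1.36 and -1.06 (adjusted p = 0.0306 and 0.0292), and both calls were lost when either uninjured library was left out. The feedback inhibitors Smad7 (log2 difference 1.03, adjusted p = 0.059) and Smad6 (0.85, 0.139) did not pass.

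Of 21 guidance genes 11 were tested. Efnb2 and Epha4, an ephrin receptor, were higher and Slit3, a Slit ligand, was lower (log2 fold changes 1.95, 1.70 and -1.43), and Epha4 lost its call in 4 of 16 and Slit3 in 5 of 13 alternatives. Of 17 matrix genes 14 were tested and 3 were higher: elastin (Eln, 1.58, adjusted p = 0.0186), Fbln5 and the calcification inhibitor Mgp (1.86, adjusted p = 0.00728). Eln was at 2489 and 1652 CPM in uninjured arterial nuclei and at 1576 and 657 CPM in the other endothelium, and lost its call in 5 of 17 alternatives. In the Notch list, 6 of 22 genes were tested, with Jag1 higher and the coactivator Maml3 lower (-0.82, adjusted p = 0.0475, a call lost when any 1 library was left out). In the VEGF and angiopoietin list, 6 of 12 were tested, with Vegfc higher and the coreceptor Nrp2 lower (-1.06, adjusted p = 0.0135, lost in 4 of 17 alternatives). None of 9 tested genes of vascular tone and junctions was called (median log2 difference 0.59, of 18 listed).

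Of the venous and capillary genes listed, 1 was called lower. Nr2f2 (chr7:70351944-70366735, minus strand) was at 72.2 and 33.5 CPM in uninjured arterial nuclei, 0 in both day 3 libraries, 53.1 at day 5, then 0 at day 7, against 384, 471, 197, 129, 296 and 177 CPM in the other endothelium. It was lower in 6 of 6 libraries (log2 fold change -3.26, SE 0.41, adjusted p = 0.000145), though its 0 in the first day 3 library allows up to 419 CPM. Nr2f2 was the single call among 6 tested of 11 venous and sinusoidal genes, whose median was -1.03 with no positive value. None of 5 tested of 12 capillary genes was called (median -0.43), and Kdr, the main VEGF receptor, gave -0.71 (adjusted p = 0.301). Against 82 capillary nuclei alone 19 of 1099 genes tested were called, 16 of them higher. Against 140 venous nuclei alone 101 of 1058 were called, 44 of them higher. Capillary nuclei numbered 5 to 11 in each library but day 5, and venous nuclei 4 to 7 in the day 3 and day 7 libraries. These counts therefore do not rank how near the classes are.

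**Figure D4:**
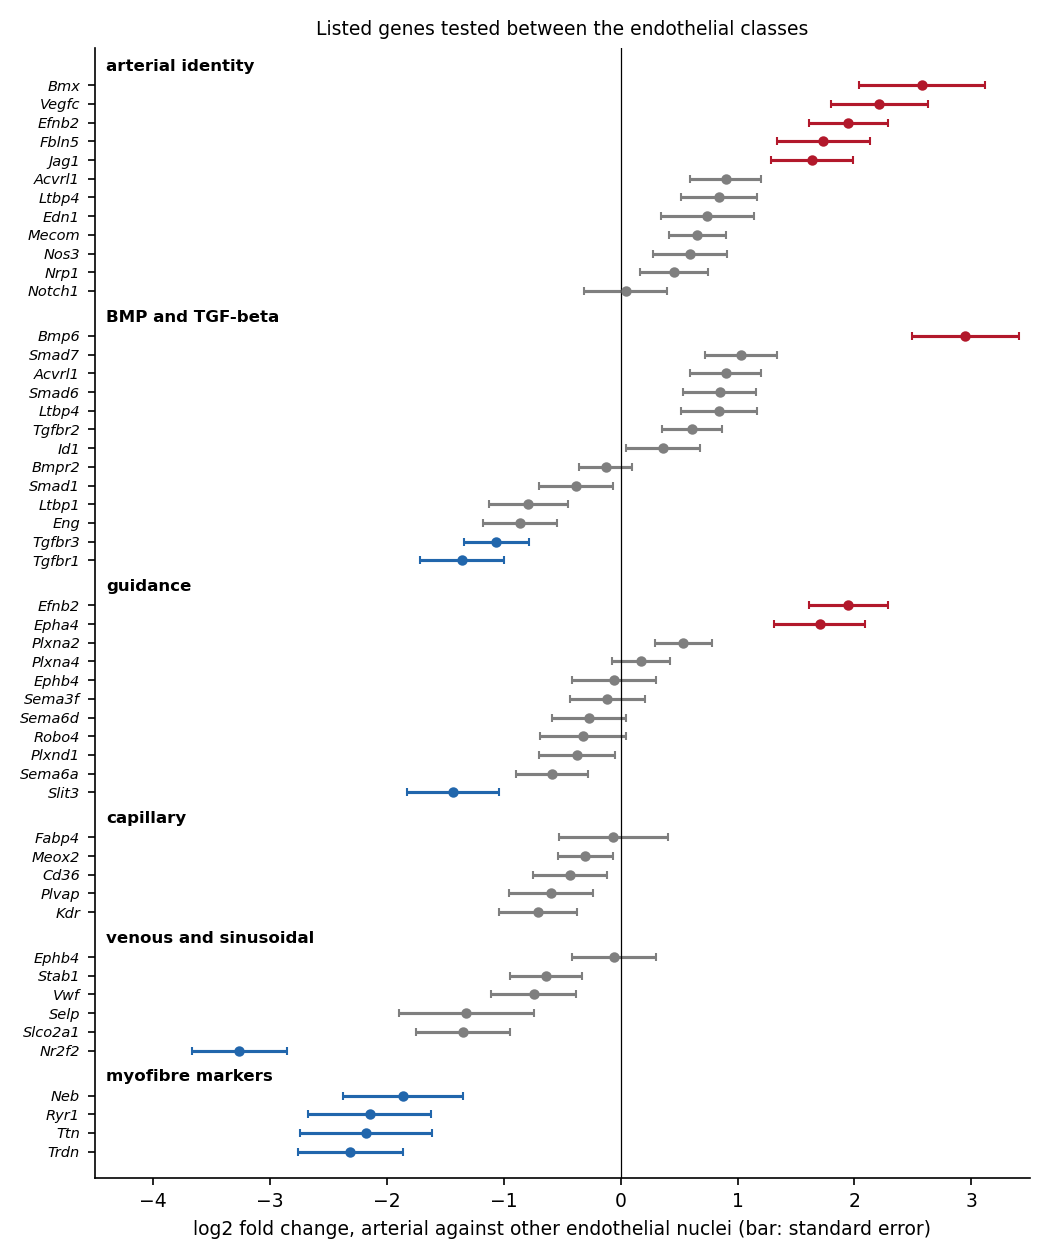
Log2 fold change of arterial against other endothelial nuclei (horizontal axis, bars show 1 standard error) for the tested genes of 6 lists (vertical axis), red where called higher, blue where called lower and grey where not called. The 5 called arterial identity genes stand to the right of 0 and Nr2f2 and the 4 tested myofibre markers to the left.

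The lower side also held myofibre markers. Among the 10 largest differences on that side were Pdlim3, Rbfox1, Mybpc1, Sdk1, Pgm5 and Lama2. Mybpc1, for example, is a myofibre gene and Lama2 a laminin chain of muscle and stroma, and the others were not sorted by cell type. All 4 tested of 8 myofibre markers (Ttn, Neb, Trdn and Ryr1) were lower, while none of 3 tested of 10 fibroblast and osteogenic markers was called. The 8 markers summed to 182 to 6708 CPM in arterial nuclei, 613 to 11931 CPM in other endothelial nuclei and 2849 to 31810 CPM in the remaining nuclei. By this sum arterial nuclei held less than other endothelial nuclei in 5 of 6 libraries. A UMI of Ttn was nevertheless found in 70 of 133 arterial (52.6%) and 227 of 573 other endothelial nuclei (39.6%), with no thinning to equal depth. Restricted to nuclei with under 2 myofibre UMIs, 47 genes were higher and 30 lower of 2026 tested, against 66 and 80 of 2609 in the main fit. Restricted to nuclei with 4 or more endothelial UMIs, 55 were higher and 34 lower of 2076 tested, so both counts also fell there. Of Rbfox1's 211 arterial UMIs 63% came from 1 nucleus. The part of myofibre RNA in the calls on the lower side was not tested.

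How arterial nuclei differed after fracture was tested between 4 fractured and 2 uninjured libraries. Of 1680 genes tested, 1 was called (0.0595%) and 139 had an unadjusted p under 0.05, while DESeq2 called 14 of 1223. The called gene was Tacr1, the receptor for the neuropeptide substance P (chr6:82402334-82560104, plus strand). It was at 469 and 699 CPM uninjured, 0 in both day 3 libraries, 15.2 at day 5, then 95.3 at day 7, so the groups did not overlap (log2 fold change -4.88, SE 0.80, adjusted p = 0.0325). It was nevertheless a gene of few nuclei: 7 of 94 uninjured arterial nuclei held its 276 UMIs, 204 of them in 1 nucleus of the second uninjured library, and 3 of 39 fractured nuclei held 4 UMIs. The call was lost without that library, without the first day 3 library or without the day 5 library. In the other endothelium Tacr1 was at 42.7 and 195 CPM uninjured and 124 to 304 CPM after fracture (log2 difference 0.72, adjusted p = 0.572). Between day 3 and uninjured libraries 0 of 1330 genes were called by edgeR (0%) and 0 by DESeq2, with 67 and 26 at an unadjusted p under 0.05.

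None of 13 tested matrix genes was called with fracture (median log2 difference 0.66). The matrix genes given here, and Slco2a1 from the venous list, did not pass and were chosen after their values were seen. Col4a1, a chain of the basement membrane collagen, was at 162 and 159 CPM in uninjured arterial nuclei, 419 and 463 at day 3, 1296 at day 5, then 1478 at day 7 (log2 difference 2.53, SE 0.63, adjusted p = 0.113). Its partner Col4a2 was at 198 and 148 CPM uninjured and 1118, 397, 1023 and 619.7 CPM after fracture (2.12, SE 0.58, adjusted p = 0.127). The same test in the other endothelium, with 179 of 5631 genes called (3.18%; 0.977% higher and 2.2% lower), did pass for both (log2 fold changes 2.65 and 1.89, adjusted p = 0.00605 and 0.0208). The test of whether the fracture difference itself differed between the classes gave -0.42 for Col4a1 and 0.04 for Col4a2, both at an adjusted p of 1. In the remaining nuclei Col4a1 was at 223 and 154 CPM uninjured and at 52.8 to 83.4 CPM after fracture. Elastin and Mgp lay the other way, with Eln at 2489 and 1652 CPM uninjured and 839, 1174, 546 and 191 CPM after fracture (log2 difference -1.64, adjusted p = 0.266), and Mgp at 577 and 1140 CPM against 0, 380, 144 and 0 CPM (-2.33, adjusted p = 0.173). In the other endothelium both passed, at -3.05 (adjusted p = 0.0339) and -2.76 (0.0357). Slco2a1, a prostaglandin transporter of endothelium, was at 415 and 268 CPM uninjured and at 68.2 CPM or less after fracture (log2 difference -2.73, SE 0.65, adjusted p = 0.0957).

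The arterial markers themselves showed no called difference with fracture, which does not show that their levels stayed the same. In simulated counts this test called 4 of 57 genes changed 2-fold, 27 of 44 changed 4-fold and 50 of 53 changed 8-fold. None of 12 tested arterial identity genes was called and 4 of them were positive (median log2 difference -0.34, against -0.01 over all genes tested). Mecom gave 0.04 (SE 0.50), Efnb2 0.60 and Vegfc -0.65. Efna5 was at 2687 and 2023 CPM uninjured and between 265 and 1174 CPM after fracture, with no overlap, but its log2 difference of -1.96 (SE 0.56) did not pass (adjusted p = 0.16).

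**Figure D5:**
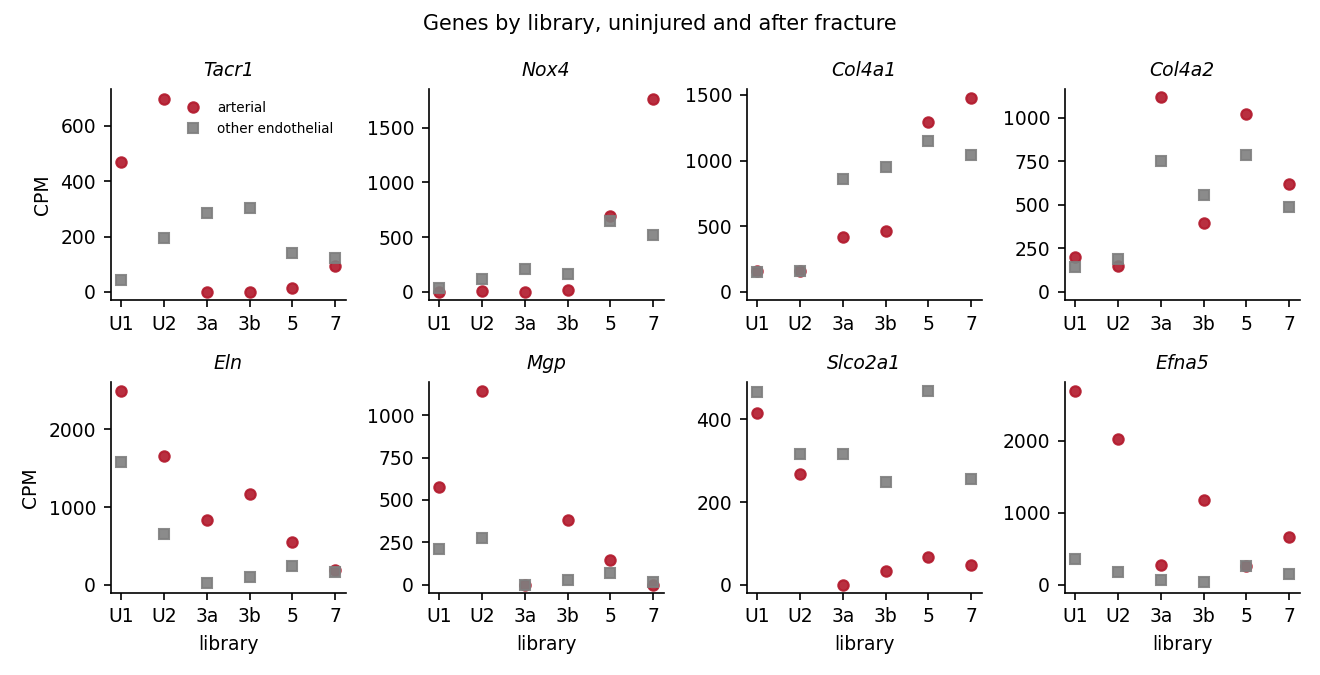
CPM (vertical axes) of 8 genes in arterial (red circles) and other endothelial nuclei (grey squares) of each library (U1 and U2 uninjured, 3a and 3b day 3, 5 and 7 the later days). Tacr1, Eln, Slco2a1 and Efna5 are lower and Col4a1 and Col4a2 higher in arterial nuclei of each fractured library than in both uninjured ones.

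The libraries with 10 or more arterial nuclei were the uninjured pair and the day 5 library, and among them 125 genes were higher (3.19%) and 135 lower (3.44%; 6.63% together) of 3924 tested at day 5. With 1 injured library, the spread in this fit came from the 2 uninjured libraries, so its calls describe that library and have no replicate check. The higher genes included 5 of 16 tested matrix genes (Col4a1, Col4a2, Col18a1, Lama4 and Lamb1), Nox4, an NADPH oxidase, and the dividing-cell genes Top2a and Kif11. Nox4 was at 0 and 5.59 CPM uninjured, 0 and 16.5 at day 3, 690 at day 5, then 1764 at day 7, with UMIs in 13 of 24 nuclei at day 5. The lower genes included Eln, Mgp, the shear-responsive factor Klf4 (253 and 86.6 CPM uninjured, 7.58 at day 5, though 279 and 132 at day 3), Selp and Slco2a1. Cartilage and stromal genes moved with them: 3 of 3 tested of 5 chondrocyte markers and 5 of 6 tested of 10 fibroblast and osteogenic markers were higher at day 5. The 5 chondrocyte markers summed to 18.0 and 11.2 CPM in uninjured arterial nuclei and 788 CPM at day 5, where the remaining nuclei held 1668 CPM, and Col2a1 came from 4 nuclei with 58.6% of its UMIs in 1. The 10 fibroblast and osteogenic markers summed to 216 and 333 CPM uninjured and 1971 CPM at day 5, against 8516 CPM in the remaining nuclei. All 6 tested myofibre markers were lower. The part of RNA from these other cells in the day 5 calls was not tested.

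Whether the change with fracture differed between arterial and other endothelial nuclei was tested as an interaction over 12 sums. The 2 classes of a library were paired by a library block. The make-up of the other endothelium differed between libraries. Its capillary nuclei numbered 6 and 11 uninjured, 6 and 7 at day 3, 47 at day 5, then 5 at day 7. Its venous nuclei numbered 46 and 60 uninjured, 7 and 5 at day 3, 18 at day 5, then 4 at day 7. The part of this mix in the interaction calls was not tested. Of 4271 genes tested, 9 had a more positive change in arterial nuclei (0.211%) and 9 a more negative one (0.211%), and 17 met the rule for naming. Bmx was the one arterial identity gene among them (difference of log2 fold changes 3.14, adjusted p = 0.0314). It was 126 and 556 CPM before and 140 to 429 CPM after fracture in arterial nuclei, while in the other endothelium it went from 146 and 133 CPM to 0 to 26.5 CPM. That call was lost when any 1 of the uninjured or day 3 libraries was left out, and DESeq2 did not make it. Nox4 differed by 4.25 and Ddah1, which degrades an inhibitor of nitric oxide synthase, by 4.64 (adjusted p = 0.0396 and 0.0243), and these calls were lost in 10 and 7 of 14 alternatives. Ddah1 was at 0 and 5.59 CPM in uninjured arterial nuclei, 0 and 16.5 at day 3, 402 at day 5, then 334 at day 7, and in the other endothelium at 39.1 to 186 CPM throughout.

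On the negative side were Tacr1 (-5.75, adjusted p = 1.3e-06), Selp (-8.13, 0.00428), Sh3kbp1 (-3.23, 0.00792), Zeb2 (-2.85, 0.0396), Mctp1 (-2.59, 0.0392) and Cdk14 (-2.31, 0.0392). Tacr1 kept its call in 14 of 14 alternatives. Most of its uninjured arterial UMIs nevertheless came from 1 nucleus of the second uninjured library, as given above. Leaving that library out was among the alternatives. Selp and Sh3kbp1 each lost their call in 5 of 14 alternatives, Zeb2 in 10, Mctp1 in 9 and Cdk14 in 8. Selp, the adhesion receptor P-selectin, was at 90.2 and 151 CPM in uninjured arterial nuclei and at 0 in the 4 fractured libraries, where counts of 0 allow up to 419, 49.6, 22.7 and 143 CPM, while the other endothelium held 53.0 to 407 CPM after fracture. Sh3kbp1, an adaptor of receptor endocytosis, stayed between 140 and 477 CPM in arterial nuclei, and was at 28.5 and 19.0 CPM in the uninjured and 129 to 275 CPM in the fractured other endothelium. For 2 other genes the values rested wholly on single nuclei. All 37 day 5 UMIs of the netrin receptor Unc5c came from 1 arterial nucleus. All 10 arterial UMIs of 5730419F03Rik, a long noncoding RNA, came from another. Bnc2 and Gpc6, which were more abundant in the remaining nuclei than in arterial nuclei in each library, were also on the positive side (3.69 and 3.22, lost in 2 and 7 of 14 alternatives), and the part of other cells' RNA in these 2 calls was not tested.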

How the data were processed

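Nuclei of tibial periosteum were sorted on a DNA stain, made into droplet libraries and sequenced by the study. The authors deposited raw UMI counts per gene and barcode, made with Cell Ranger 6.0.0 (first uninjured, day 5 and day 7 libraries) or 7.1.0 (the other three) on the mouse genome mm10 (GRCm38) with intronic and exonic reads. Of 13551 barcodes 8073 were kept, those with 200 to 5000 genes whose UMIs were less than 2% mitochondrial and less than 1.5% from Rps and Rpl genes. Scrublet (scanpy 1.11.5) marked 48 nuclei as doublets, 4 of them arterial, which were kept and left out as an alternative. No arterial barcode was shared between libraries.

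UMIs were summed per library and class over the 30406 gene IDs that every library lists, and the 15 genes of the rule were left out of the tests. edgeR 4.0.16 (quasi-likelihood, TMM, filterByExpr, library as a block between classes) gave the main tests, and DESeq2 1.42.0 an alternative, in R 4.3.3. p-values were adjusted by Benjamini-Hochberg, with 0.05 as the threshold. The scripts were tested on simulated counts. The genes named were the 10 largest changes per direction with an adjusted p under 0.05, a mean of 50 CPM in the higher group and 1 direction in every library or pair with 10 or more arterial nuclei, plus genes of the lists. The nuclei, genes and lists were chosen with earlier results of these data known. In the marker check, where classes were set before thinning, 6 arterial nuclei under 1000 UMIs were left out. In the shares the rule was applied again to the thinned counts. Shares were compared by exact permutation over libraries. The alternatives tried were other size factors and filters, stricter and looser nuclei, a single comparison class, a Cell Ranger term and each library left out.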

Additional observations from a re-analysis of the deposited data

Results flagged for a closer look

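Among the 4 fractured libraries, 1 value lay far from the other three (Dixon's test) in 7 of 23 sets looked at, where chance gives about 1 in 20 for continuous values. That rate does not hold for Nr2f2 and Lama2, which stand against counts of 0, nor for Mybpc1 and Tacr1, which rest on 2 UMIs. The arterial share of kept nuclei stood apart at day 5, at 0.991%. In arterial sums of the second day 3 library, Nebl stood apart at 1918 CPM and Bmp6 at 976 CPM. At day 5 Nr2f2 stood at 53.1 CPM and Lama2 at 91.0 CPM, with 0 in the other fractured libraries. At day 7 Mybpc1 and Tacr1 both stood at 95.3 CPM.

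The change with fracture differed between arterial and other endothelial nuclei for 17 named genes, as a difference of log2 fold changes past an adjusted p of 0.05 (edgeR interaction). The mix of capillary and venous nuclei in the other endothelium also differed between libraries, and its part was not tested. It was positive for Unc5c (5.87), Ddah1 (4.64), Kcnt2 (4.51), Nox4 (4.25), Bnc2 (3.69), Gria3 (3.64), Gpc6 (3.22), Bmx (3.14) and Stxbp6 (3.13). It was negative for 5730419F03Rik (-12.32), Selp (-8.13), Tacr1 (-5.75), Akap6 (-3.89), Sh3kbp1 (-3.23), Zeb2 (-2.85), Mctp1 (-2.59) and Cdk14 (-2.31). Cdk14 was the most widely detected of these, in 108 of 133 arterial nuclei, with 956 and 908 CPM in uninjured arterial nuclei and 279 to 858 CPM after fracture, against 249 and 215 CPM and then 360 to 911 CPM in the other endothelium. Zeb2 was at 47.7 to 220 CPM in arterial nuclei of all 6 libraries and at 28.5 and 211 CPM in uninjured and 295 to 924 CPM in fractured other endothelium, and the remaining nuclei held more Zeb2 than arterial nuclei in each library.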

How the results depend on the processing

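The mean arterial share was lower in fractured libraries under each alternative, with differences in the share of kept nuclei down to -1.63 points at 1000 UMIs per nucleus and from -5.38 to -3.19 with 1 library left out. Of endothelial nuclei, with 3 or more arterial UMIs the difference was -8.14 points (exact permutation p = 0.133), and the second day 3 library (12.5%) lay above the first uninjured one (7.93%). Here and below, the number of genes tested differed between settings, so counts of calls alone do not rank them. The count of genes that differed between arterial and other endothelial nuclei, 146 of 2609 tested, was 394 of 19112 with no filter on low counts. It was 19 of 1099 against capillary nuclei only and 14 of 2609 with no library block. With 1 library left out it was 65 to 141 (92 of 2639 without the first and 65 of 2210 without the second uninjured library). Of 2 alternatives chosen after seeing the data, nuclei with under 2 myofibre UMIs gave 77 of 2026 and 4 or more endothelial UMIs gave 89 of 2076 (55 higher and 34 lower). For fracture, the 1 call became 14 with DESeq2, 64 with no filter, 8 with doublets left out, 13 with 3 or more arterial UMIs, 12 with a Cell Ranger term, 260 in the libraries with 10 or more arterial nuclei, 2 with 4 or more endothelial UMIs and 0 with under 2 myofibre UMIs. With 1 library left out it ranged from 0 (without the second uninjured, first day 3 or day 5 library) to 54 (without the second day 3 library), with 14 without the first uninjured library. Day 3 calls ranged from 0 to 52, with 52 without the first day 3 library and 1 without the first uninjured one. Interaction calls, 18, were 4 with DESeq2, 8 with no filter, 9 with under 2 myofibre UMIs and 2 to 22 with 1 library left out (5 without the first uninjured, 2 without the second uninjured and 9 without the first day 3 library). Without the day 5 library the interactions of Unc5c and Kcnt2 reversed, to -0.61 and -0.50, with ranges up to 6.63 and 4.85 over the libraries left out in turn. The causes were not tested.

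Over all alternatives, values of genes named between the classes kept their call in 418 cases and lost it in 72 with no change of direction, and those of the interaction kept it in 129 and lost it in 104. A lone library left in a group is assumed to vary like the others. No paired analysis was possible because the labels carry no replicate numbers that would tie a fractured to an uninjured library. The library block ties only the classes within a library. The day 3 and day 7 libraries hold 3 to 7 arterial nuclei each, and there a count of 0 allows 49.6 to 419 CPM.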

Other observations

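Arterial nuclei with RNA of dividing cells were seen after fracture in 2 of 4 libraries. The 10 proliferation genes listed (Mki67, Top2a and others) summed in arterial nuclei to 0 and 5.59 CPM uninjured, 0 and 612 CPM at day 3, 750 CPM at day 5 and 0 at day 7. In the other endothelium they summed to 21.3 and 17.6 CPM uninjured and to 322 to 506 CPM in the 4 fractured libraries. None of the 10 was abundant enough for the class or fracture tests, and Top2a was found in 7 and Mki67 in 4 of the 133 arterial nuclei.

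The 12 angiogenic tip genes listed summed to 559 and 551 CPM in uninjured arterial nuclei, 140 and 645 CPM at day 3, 1274 CPM at day 5 and 858 CPM at day 7, and none of 3 tested was called with fracture. The 9 immediate early genes, which respond within minutes to handling and injury, summed to 415 and 61.5 CPM in uninjured and 95.3 to 265 CPM in fractured arterial nuclei, so the groups overlapped.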
